A study of Mus musculus with 4 samples.

Results

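DP-only intergenic regions are stretches of open chromatin that lie away from protein-coding genes and that were listed as ATAC-seq peaks in both samples of double-positive (DP) thymocytes and in neither sample of double-negative (DN) thymocytes. ATAC-seq maps open DNA through a transposase that inserts sequencing adapters where the DNA is not covered. Peaks of the 4 lists on chromosomes 1 to 19 and X that shared at least 1 bp were merged into 107607 regions, of which 8003 (7.44%) were DP-only. A DP-only region was kept when its midpoint lay outside every protein-coding gene span and more than 1 kb from any span end, which left 2685 regions. They made up 4.73% of the 56740 intergenic regions of any list, of which 1426 (2.51%) were held by both DN lists and no DP list and 1739 (3.06%) by all 4 lists. Presence in the lists chose these regions, so their absence from the DN lists is a description and not a finding. The 2 DN samples were thymus cells sorted as negative for CD4 and CD8 and positive for CD25, with CD44 negative or positive. The 2 DP samples were thymus cells positive for CD4 and CD8. All 4 came from wild-type C57BL/6J mice of 5 to 7 weeks, with no treatment named, and were sorted and processed directly. Whether the replicates of a stage are different mice is not in the labels, and p-values then measure only the spread between these samples. Each list comes from a bulk sample, in which a site open in fewer cells and a site less open in every cell cannot be told apart.

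In the thymus, DN cells rearrange the T cell receptor beta chain genes, and cells that make a working chain divide and become DP cells, which rearrange the alpha chain genes and are then selected on their receptor. Enhancers, DNA elements that raise the activity of genes at a distance, often lie in intergenic DNA and are open in the cell types that use them. Long non-coding RNA (lncRNA) and microRNA (miRNA) genes also lie between protein-coding genes, so an intergenic region can be the start of a non-coding transcript.

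The sequences shown first are those of non-coding genes at DP-only intergenic regions. A DP-only region at chr11:75173351-75174000 covered the genes of 2 miRNAs, Mir212 and Mir132, which are made from a common transcript. Their mature 3p strands share the seed, bases 2 to 8, by which a miRNA recognises its targets and which is in capitals here. The sequences are RefSeq's, on GRCm38.p6.
mmu-miR-212-3p: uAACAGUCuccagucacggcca
mmu-miR-132-3p: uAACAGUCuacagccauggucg
Mir181c and Mir181d, neighbours on chromosome 8, had 3 DP-only intergenic regions within 10 kb. The miR-181 family is known in DP thymocytes for tuning T cell receptor sensitivity. Its 5p strands share a seed, shown here for the pair and for the relative encoded by Mir181a-1 on chromosome 1, which had 1 DP-only intergenic region within 100 kb.
mmu-miR-181c-5p: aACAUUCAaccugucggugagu
mmu-miR-181d-5p: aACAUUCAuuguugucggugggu
mmu-miR-181a-5p: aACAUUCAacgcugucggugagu
Mir21a and Mir142, both expressed in blood cells, had 2 DP-only intergenic regions each within 10 kb. Their mature strands carry other seeds.
mmu-miR-21a-5p: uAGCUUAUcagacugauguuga
mmu-miR-142a-3p: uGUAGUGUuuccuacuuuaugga

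DP-only intergenic regions also covered start sites of lncRNA genes, and 4 such starts are printed as examples, chosen after their values were seen. Each window runs from 250 bases before to 50 bases after the annotated start, read along the gene's strand from RefSeq (GRCm38.p6), and each of the 4 printed lies wholly inside the DP-only region. Capitals mark a match on either strand to one of 9 short motifs, which can overlap each other. For RUNX factors the letters searched were AACCACA, for ETS factors ACAGGAA, for the E box of E proteins CAGCTG and for TCF and LEF factors CTTTGAT. For GATA factors they were AGATAA, for Ikaros TGGGAA, for ROR factors TAGGTCA, for AP-1 TGANTCA, where N is any base, and for the GC box GGGCGG. Gm41589 (chr17:47139650-47139949, minus strand) had the best ranked region of all lncRNA starts, 1091 bp from Trerf1. Gm41600 (chr17:52304258-52304557, plus strand) started in a region of the gap between Satb1 and Kcnh8. Its midpoint lay 471036 bp beyond Satb1 and nearer to Kcnh8, in a gap of 769418 bp. Gm33619 (chr10:21186694-21186993, plus strand) started in a region with its midpoint 25892 bp from Myb, a transcription factor gene of early blood and T cells. E430016F16Rik (chr7:78718171-78718470, minus strand) started in a run of 4 DP-only regions between Ntrk3 and Mrpl46.
Gm41589: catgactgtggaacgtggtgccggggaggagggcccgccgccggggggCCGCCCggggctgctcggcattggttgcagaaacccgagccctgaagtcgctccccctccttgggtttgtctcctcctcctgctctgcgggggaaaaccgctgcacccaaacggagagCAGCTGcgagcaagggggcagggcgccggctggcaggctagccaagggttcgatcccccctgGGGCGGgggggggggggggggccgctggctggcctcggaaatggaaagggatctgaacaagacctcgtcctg
Gm41600: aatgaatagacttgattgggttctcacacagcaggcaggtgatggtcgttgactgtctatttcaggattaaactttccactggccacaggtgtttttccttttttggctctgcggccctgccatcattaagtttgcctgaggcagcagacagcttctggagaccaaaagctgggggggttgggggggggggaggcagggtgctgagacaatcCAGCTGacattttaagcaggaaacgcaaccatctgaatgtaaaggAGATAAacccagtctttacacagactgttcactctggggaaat
Gm33619: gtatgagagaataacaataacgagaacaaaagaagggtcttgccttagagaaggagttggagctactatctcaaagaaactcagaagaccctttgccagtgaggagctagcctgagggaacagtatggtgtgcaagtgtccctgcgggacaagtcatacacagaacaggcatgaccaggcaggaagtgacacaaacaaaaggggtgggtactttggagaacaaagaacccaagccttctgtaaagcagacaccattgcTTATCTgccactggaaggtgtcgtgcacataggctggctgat
E430016F16Rik: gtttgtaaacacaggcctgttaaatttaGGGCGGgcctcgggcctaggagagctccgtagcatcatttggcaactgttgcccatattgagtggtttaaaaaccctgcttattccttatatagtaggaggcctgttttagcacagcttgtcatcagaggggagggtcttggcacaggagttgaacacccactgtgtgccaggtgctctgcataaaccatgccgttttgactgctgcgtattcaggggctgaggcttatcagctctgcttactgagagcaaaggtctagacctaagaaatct
In all, 88 DP-only intergenic regions overlapped 110 start windows of 91 lncRNA genes, and 66 of these windows lay wholly inside their region. The 110 windows had a median GC content of 53% and 7 CpG dinucleotides, between those of all 11574 lncRNA windows (48.3% and 4) and of 21044 protein-coding windows (56.7% and 13). The lncRNA windows under intergenic regions of all 4 lists were close to them, at 52% and 8. The E box was found in 21.8% of the windows under DP-only regions, in 11.3% of the 141 windows under intergenic regions of all 4 lists and in 17.6% of all lncRNA windows. The GC box was found in 20.9%, 40.4% and 16.3% of the same sets, so the share under DP-only regions was above that of lncRNA windows in general and below that of the all-list set. Among all 32619 windows of the table, protein-coding ones included, the E box stood at 16.4% and the GC box at 35.9%. RUNX letters were found in 5.45%, 11.3% and 6.30% of the first 3 sets, ETS letters in 9.09%, 16.3% and 9.99%, and ROR letters in 3.64%, 4.26% and 3.13%. The Ikaros motif stood at 24.5%, 23.4% and 27.5%, GATA at 9.09%, 7.09% and 13.97%, AP-1 at 10%, 6.38% and 9.31%, and TCF/LEF at 2.73%, 7.09% and 4.67%. A few windows decide these shares, since 24 of the 110 held the E box and 3 held the TCF/LEF letters. A match is only a run of letters.

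Of the 8003 DP-only regions, 2685 (33.5%, 95% Wilson interval 32.5 to 34.6%) were intergenic, 3207 (40.1%) lay inside a gene and 2111 (26.4%) lay within 1 kb of a gene end. The counterpart regions of DN cells, held by both DN lists and no DP list, were intergenic in 52.8% of 2703 cases. Regions held by all 4 lists were intergenic in 21.9% of 7951 cases. The intervals cover counting error only. The DP-only class thus stood between the other 2, and its gene-end share of 26.4% stood between 7.33% for DN-only and 51.6% for regions of all lists. Leaving out 1 list moved the number of DP-only intergenic regions widely, since the class then rests on 3 lists and the rule asks for less, so counts without a list mostly rise by construction. They numbered 4037 without DN 1, 3043 without DN 2, 23804 without DP 1 and 8694 without DP 2. Among the settings that leave out a list, the order of the classes changed only without DP 1. The intergenic share was then 53.6% for DP-only and 51.6% for DN-only regions, and the gene-end shares were 8.12 and 8.15%. In that setting a DP-only region needs a peak in 1 DP list, while a DN-only region still needs both DN lists. Without DP 2 the intergenic shares were 45.0 and 49.97%, and the order was kept.

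**Figure D1:**
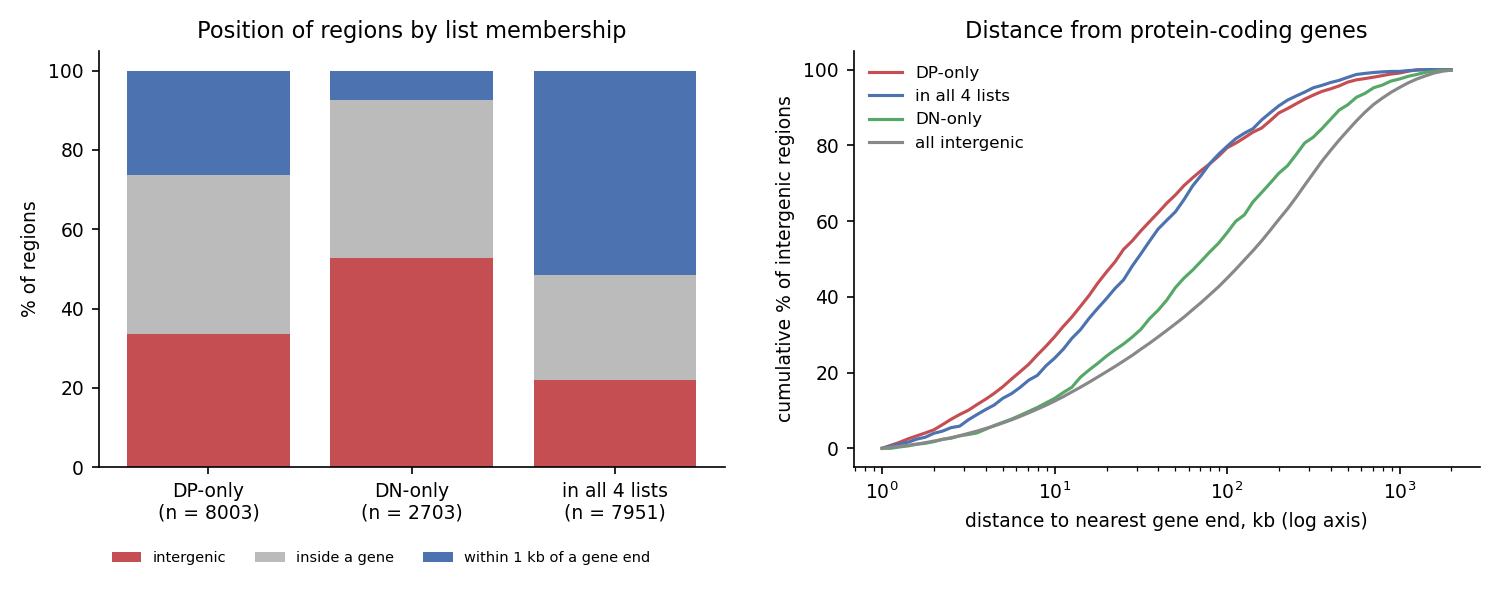
Left, the percentage of DP-only, DN-only and all-list regions that were intergenic, inside a protein-coding gene or within 1 kb of a gene end. Right, the cumulative percentage of intergenic regions of each class against the distance to the nearest gene end (log axis); the DP-only curve runs above the curve of all intergenic regions, with medians of 22944 and 127781 bp.

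DP-only intergenic regions lay close to genes for intergenic sites. The median distance from midpoint to nearest gene end was 22944 bp, with quartiles of 8088 and 77475 bp. Intergenic regions held by all 4 lists stood at 30502 bp, DN-only ones at 73614.5 bp and all intergenic regions at 127781 bp. In the DP-only class 791 regions (29.5%) lay 1 to 10 kb from a gene, 1005 (37.4%) 10 to 50 kb, 335 (12.5%) 50 to 100 kb, 466 (17.4%) 100 to 500 kb and 88 (3.28%) farther out. Beyond 100 kb were thus 554 regions (20.6%), against 20.2% of all-list, 43.1% of DN-only and 55.1% of all intergenic regions. Without DP 1 the median distance rose to 113312 bp and the share beyond 100 kb to 52.8%, close to the values of all intergenic regions, and without DP 2 they were 64301 bp and 42.0%. The rule's limit of 1 kb separated like cases. Just outside it were regions 1003 bp from Ccin, 1004 bp from Myo7a and 1006 bp from Kcng3, and just within it were regions 994 bp from Rpia, 972 bp from Wdr73 and 968 bp from Patz1. With strand known from annotated starts (chromosome 18 not used, here or for start windows), 1606 of 2609 regions (61.6%) lay upstream of the nearest protein-coding start, against 57.7% of all intergenic regions. The all-list and DN-only intergenic classes were close to this, at 60.2 and 58.9%. The share of intergenic regions that were DP-only ran from 2.93% on chromosome X and 3.22% on chromosome 3 to 8.95% on chromosome 11 and 10.3% on chromosome 19.

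The peaks behind these regions were of middling rank. A peak's rank percentile within its list, from the authors' p-value, counts up to 100 for the smallest p, and tied peaks share their mean rank. A region with several peaks in a list took the best rank among them. The DP-only intergenic regions had a median percentile of 53.8 in DP 1 (quartiles 36.02 and 69.2) and 71.3 in DP 2 (47.0 and 81.7). DP-only regions inside genes had the same medians, 53.8 and 71.3. DP-only regions at gene ends stood higher, at 62.9 and 78.1, and intergenic regions of all 4 lists higher still, at 71.6 and 86.1. In DP 1 and DP 2, 17.7 and 18.8% of the DP-only gene-end regions held 2 or more peaks, against 10.7 and 11.6% of the intergenic ones. The largest p of its list, where ties are many, was the value of 480 DP-only intergenic regions (17.9%) in DP 1 and 375 (13.97%) in DP 2. Of all single peaks of those lists, 29.1 and 38.5% were at it. These units are unlike, since a region took the smallest p of its peaks and needed a peak in both DP lists. Only 124 regions were at the largest p in both lists, and 1259 (46.9%) ranked in the upper part of both. The ranks in DP 1 and DP 2 had a Spearman rho of 0.514 over the 2685 regions, and the covered widths one of 0.508, given as descriptions. The covered width had a median of 500 bp in DP 1 (quartiles 400 and 550) and 550 bp in DP 2 (450 and 600). The merged regions ran from 300 to 1400 bp. Some lay close to a DN peak without touching it: 92 (3.43%) had one within 500 bp and 673 (25.1%) within 5 kb, and the median was 15100 bp.

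**Figure D2:**
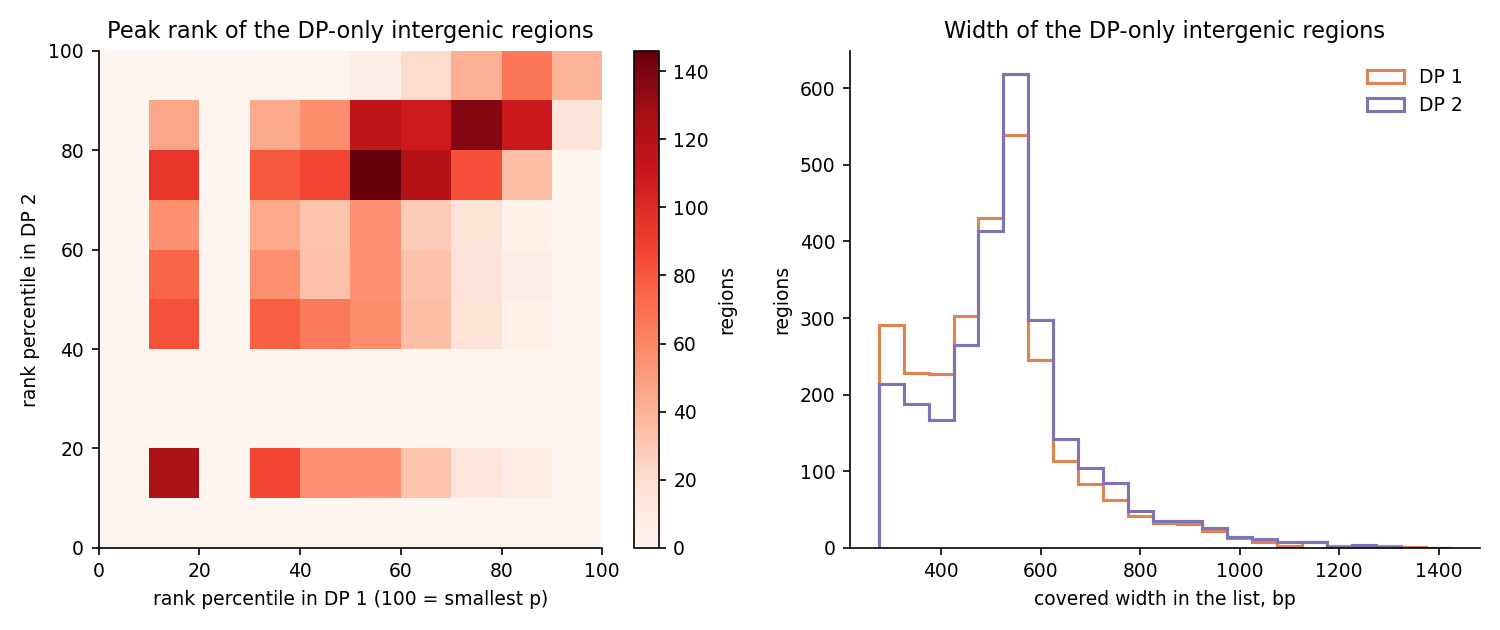
Left, the number of DP-only intergenic regions by rank percentile in DP 1 (x axis) and DP 2 (y axis) in steps of 10; empty rows and columns come from tied p-values. Right, the number of regions by covered width in each DP list; most widths lie near the medians of 500 and 550 bp.

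The lists themselves differed in length. DN 1, DN 2, DP 1 and DP 2 held 38794, 33118, 39696 and 70365 peaks over 17.6, 13.7, 19.8 and 31.6 Mb, and give no read counts. Depth is therefore not known, and a site without a peak may have had too few reads. Intergenic peaks made up 43.0 and 51.6% of the DN lists and 35.7 and 45.8% of the DP lists, so the groups overlapped. The mean was 47.3 ± 6.04% in DN and 40.7 ± 7.14% in DP (SD, n = 2 each), an exact two-sided permutation p of 0.667. The median distance of an intergenic peak to a gene end was 91250.5 and 166561 bp in DN and 44860 and 89353 bp in DP, without overlap. Its difference of -61799 bp had an exact permutation p of 0.333, the smallest that 2 samples per group allow. The median width of intergenic peaks was 350, 350, 400 and 350 bp (exact permutation p = 1). With Benjamini-Hochberg adjustment over these 3 measures, each exact p became 1. Within 10 kb of the 5 DP marker genes Cd4, Cd8a, Cd8b1, Rag1 and Rag2, peak counts summed over genes were 3, 3, 31 and 34 in the same order. Rag1 and Rag2 lie so close that a peak near both was counted for each. The 3 DN marker genes Il2ra, Ptcra and Notch1 had 13, 2, 17 and 17 and did not set the groups apart. Peaks at 7 B cell genes numbered 12, 5, 13 and 22, at 7 myeloid genes 4, 1, 5 and 4, at 6 NK and innate genes 7, 3, 8 and 13, at 4 erythroid genes 4, 4, 5 and 7 and at 6 stromal genes 2, 1, 3 and 3. Of these 30 genes, 10 had 0 peaks within 10 kb in every list, which were Lyz2, Csf1r, S100a8, Mpo, Ms4a1, Ncr1, Gata1, Alas2, Krt5 and Epcam. Other defining genes had peaks, with 8, 3, 7 and 8 at the B cell factor gene Ebf1, 2, 1, 2 and 6 at Cd79a, 3, 1, 4 and 4 at the erythroid factor gene Klf1 and 4, 2, 2 and 5 at Klrb1c. The part of other cells in the results below was not tested.

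Antigen receptor loci held 83 of the DP-only intergenic regions (3.09%), since their gene segments do not count as protein-coding genes in the table. The immunoglobulin heavy chain locus Igh held 52, of which 29 overlapped a segment, and the T cell receptor alpha and delta loci held 28, of which 20 did. Intergenic regions of any class numbered 160 in Igh and 85 in the alpha and delta loci. Over the whole set of intergenic regions, 4.73% were DP-only. Peaks in Igh numbered 16 and 8 in the DN lists and 109 and 147 in the DP lists, and in the alpha and delta loci 7, 6, 62 and 66. Both DP lists stood above both DN lists in these loci, which the choice of regions by presence in both DP lists and in no DN list partly fixes, here and for the gaps, runs and genes below. The best ranked region on a segment of Igh covered Ighv1-12 (chr12:114615051-114616200), with percentiles of 96.8 and 94.7, and the best ranked of the alpha and delta loci covered Trav12-1 (chr14:53537751-53538350), with 78.5 and 93.4. The beta chain locus held 2, of which 1 lay on Trbv31, Igk held 1, on Igkv9-123, and the lambda and gamma loci held 0. Without DP 1 the counts were 115 for Igh, 56 for alpha and delta, 9 for beta and 32 for Igk, and without DP 2 they were 78, 48, 7 and 11. Without DN 1 the beta locus held 4 and the gamma locus 1. In the top 50% of each list Igh held 38, alpha and delta 17, beta 1 and Igk 0. The other 2602 regions (96.9%) lay outside receptor loci.

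DP-only intergenic regions were spread over many gaps between neighbouring protein-coding genes. Of 7558 gaps with any intergenic region, 1674 held at least 1 DP-only region, 488 at least 2, 203 at least 3 and 57 at least 5. The average over all gaps was 1.71 per Mb. Of the 203 gaps with 3 or more, 173 (85.2%) held 0 DN-only regions, a share near the 87.3% of all gaps with an intergenic region. Apart from the receptor loci, the gap with most was the one beyond Myc, the growth regulator, up to Gsdmc, with 17 DP-only regions and 7, 3, 31 and 46 peaks in DN 1, DN 2, DP 1 and DP 2. The gap between Satb1, a chromatin organiser of thymocytes, and Kcnh8 held 13, with 13, 3, 35 and 34 peaks. The gap between Haao and Zfp36l2, which encodes an RNA-binding protein that destabilises transcripts, held 12, with 9, 1, 22 and 41 peaks. In these gaps both DP lists stood above both DN lists. The counts do not allow for the length of a gap. Per Mb, the gaps of Myc, Satb1 and Zfp36l2 held 9.52, 16.9 and 35.8 DP-only regions, and the short gap between Cd8b1 and Cd8a held 139. DP-only regions were 30.9, 32.5 and 34.3% of the intergenic regions in the first 3 of these gaps. A gap next to Trps1 held 11 (16, 16, 24 and 50 peaks), and gaps next to Ets2, Foxo1, Nrp1 and Bcl11b and the gap between Olfr1324 and Stk26 that holds the lncRNA gene Firre held 9 each. The gap next to Bcl11b, a factor that commits cells to the T lineage, had 3, 0, 21 and 22 peaks, and its DP-only regions lay far from the gene, since Bcl11b was the nearest gene to 1 of them, 98977 bp away. The gap between Camk1g and Plxna2 also held 9, but with 60, 43, 58 and 161 peaks the groups overlapped there, and its 9 were 4.15% of the gap's intergenic regions. Between Bcl6, a transcriptional repressor, and Lpp lay 8 (4, 0, 16 and 18 peaks).

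Single lists moved these gap counts. Without DP 1 the gaps held 39 (Myc), 23 (Satb1), 27 (Zfp36l2), 41 (Trps1), 29 (Nrp1), 17 (Bcl11b), 106 (Camk1g) and 14 (Bcl6) DP-only regions. Without DP 2 they held 25, 20, 15, 20, 18, 16, 42 and 14 in the same order. For the gaps next to Ets2, Foxo1 and Firre the counts stayed between 9 and 13 whichever list was left out. In the top 50% of each list the counts fell, to 3 for Zfp36l2, 4 for Bcl6, 5 for Firre and Camk1g, 7 for Trps1 and 8 for Satb1. With lists of the shortest length they were 4 for Camk1g, 7 for Zfp36l2 and 8 for Satb1.

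**Figure D3:**
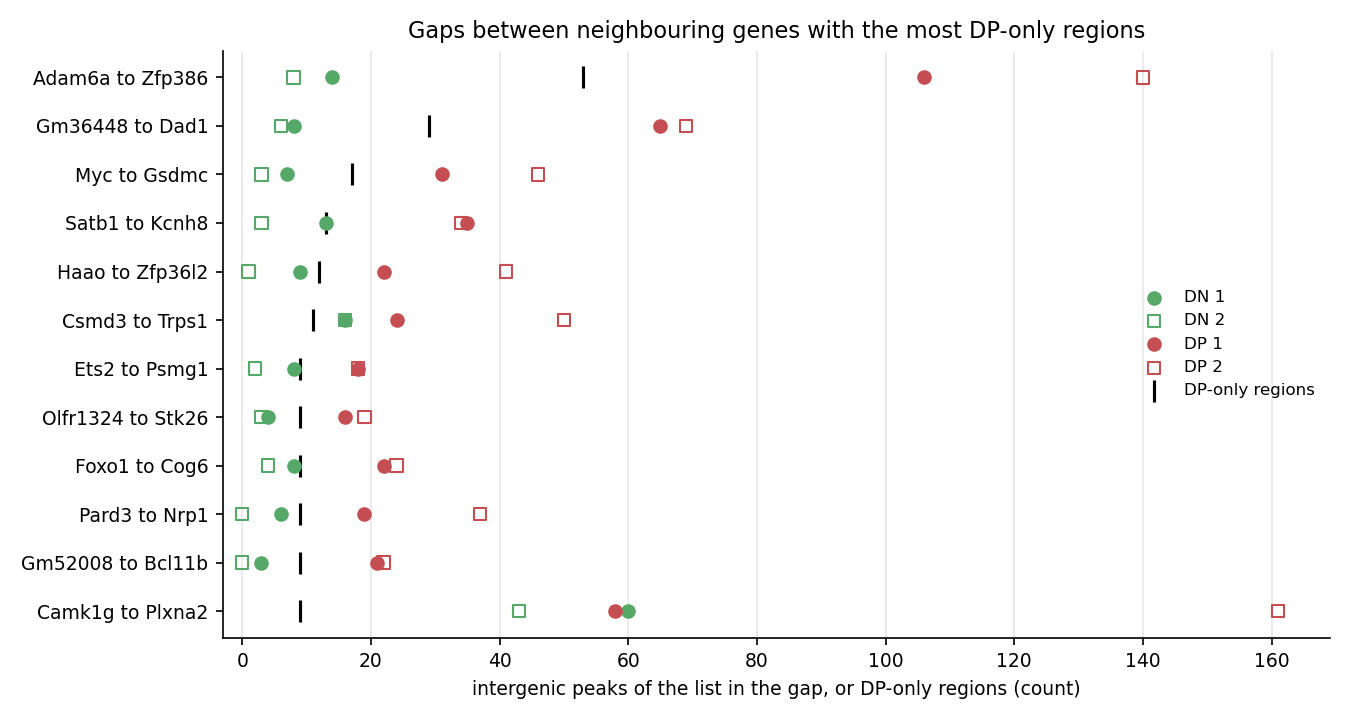
Intergenic peaks of each list (circles and squares, DN green, DP red) and DP-only regions (black bars) in the 12 gaps between neighbouring protein-coding genes that held the most DP-only regions, with their flanking genes on the y axis. In all gaps but the one between Camk1g and Plxna2 both DP lists lie to the right of both DN lists.

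Within gaps, many of the regions stood in close company. Another DP-only intergenic region lay within 10 kb of 570 regions (21.2%), against 10.2% for the all-list class and 5.96% for the DN-only class measured among themselves. These classes differ in number, and among all 56740 intergenic regions the share was 59.7%. Leaving out DP 1 gave shares of 36.3% for DP-only, 11.5% for all-list and 7.13% for DN-only regions, and leaving out DN 1 gave 27.8, 12.4 and 22.8%. Joined at gaps of at most 10 kb, the regions formed 211 pairs, 36 runs of 3, 4 of 4, 2 of 5 and 2 of 7, with 2115 alone. A run of 7 lay over the alpha chain J segments near Dad1 (0, 0, 14 and 10 peaks). The other run of 7 lay inside Firre (0, 0, 10 and 10 peaks) and spanned 23750 bp. The runs of 5 lay 6191 bp from Ahdc1, toward Wasf2 (1, 1, 7 and 6 peaks), and between Tnfaip3, an inhibitor of NF-kB signalling, and Olig3, 152466 bp from Tnfaip3 (0, 0, 6 and 9). The runs of 4 lay between Ntrk3 and Mrpl46 (1, 0, 5 and 5), between Satb1 and Kcnh8 (0, 0, 5 and 5), between Irf1 and Slc22a5 (0, 0, 5 and 4) and between Cd8b1 and Cd8a (0, 0, 5 and 5). The rule allows no DN peak in the regions of a run, so one could lie only between them, and each DN list held at most 1 in any of these 8 runs. Leaving out a list relaxes the rule, and each of the 8 then held 4 to 8 regions. The run near Satb1 held 1 region and the run near Ahdc1 held 2 when the top 50% of each list was used.

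The genes Cd8b1 and Cd8a, which encode the CD8 chains used to sort DP cells, share a gap of chromosome 6 that is known to hold enhancers of these genes. It held 5 DP-only regions. The region nearest to Cd8b1, at chr6:71339301-71339850, lay 2084 bp from it and had percentiles of 66.2 and 66.9 in DP 1 and DP 2. The next, at chr6:71353451-71354250, lay 16359 bp from Cd8b1, with 76.0 and 86.1. The remaining 3 lay nearer to Cd8a, and the ranks of the first 2 of these were higher. The region at chr6:71360351-71361200 had 87.7 and 92.4, that at chr6:71369101-71370000, 3876 bp from Cd8a, had the smallest p in both lists, and the last, at chr6:71370951-71371550, had 74.9 and 95.3. Their identity with particular enhancers was not examined.

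**Figure D4:**
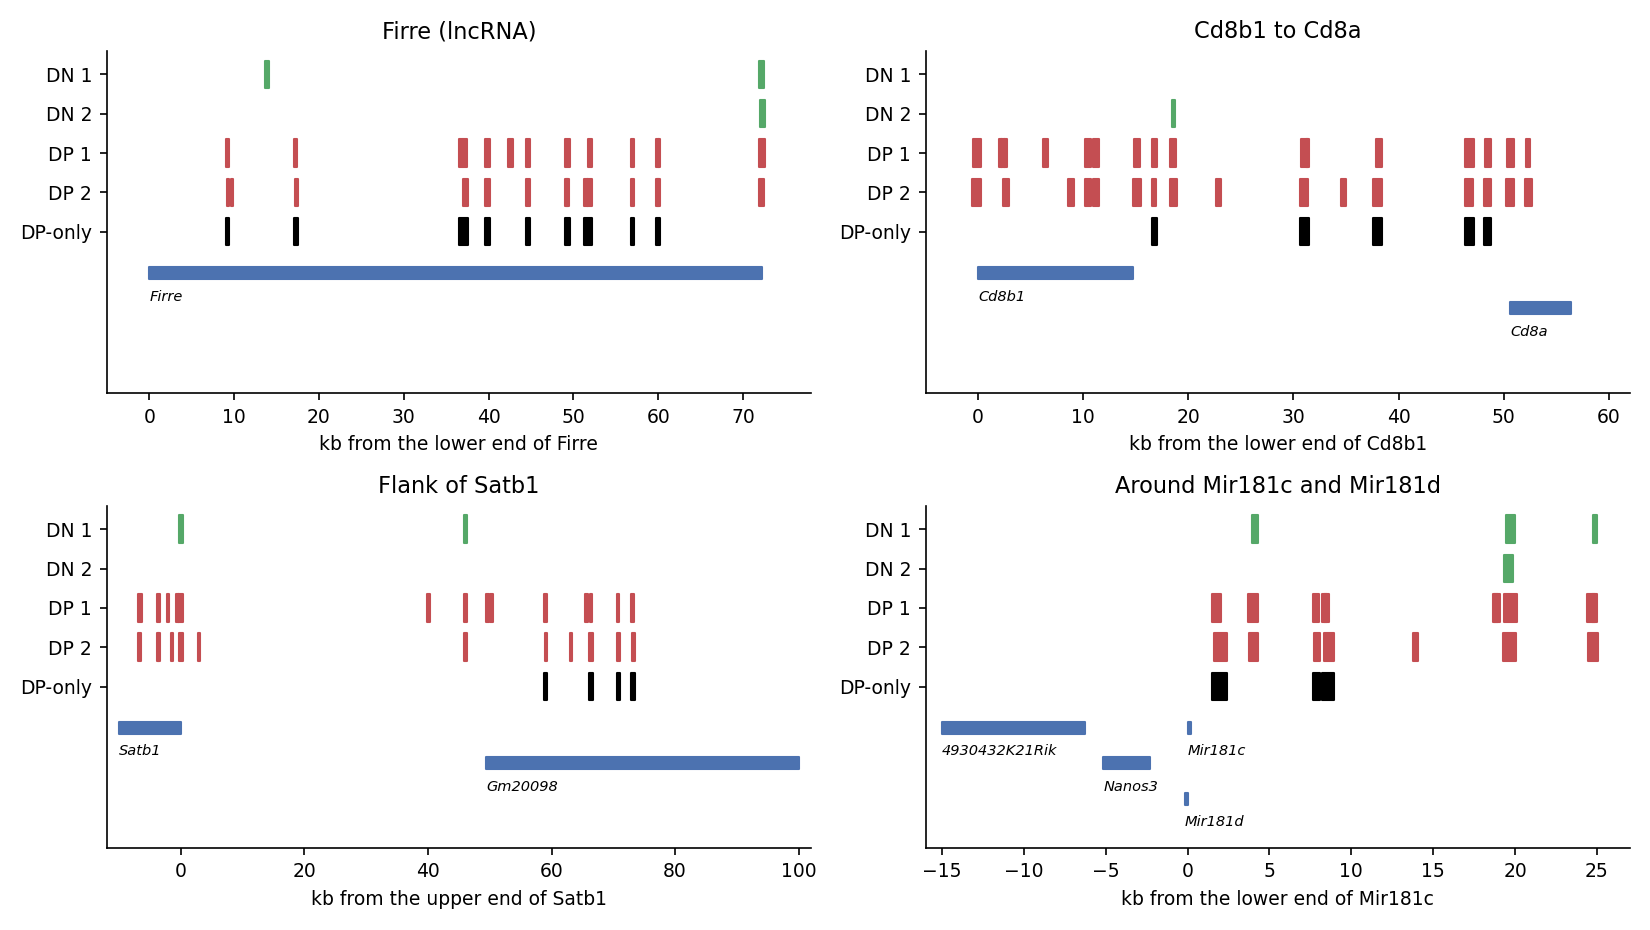
Peaks of each list (DN green, DP red) and DP-only intergenic regions (black) along Firre, from Cd8b1 to Cd8a, beyond Satb1 and around Mir181c and Mir181d, against distance in kb from a gene end, with gene spans in blue. The 9 DP-only regions of Firre and the 5 between Cd8b1 and Cd8a are spread along most of each span, and those at Satb1 lie 59011 to 73186 bp from it.

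LncRNA genes were overlapped by 603 of the regions (22.5%), against 26.0% of all-list, 17.0% of DN-only and 13.9% of all intergenic regions. In all, 523 of 12697 lncRNA genes were hit, 74 of them by 2 or more regions and 20 by 3 or more. Firre, an X-linked lncRNA known for the folding of the inactive X chromosome and for contacts between chromosomes, led with 9 DP-only regions of 13 intergenic regions in its span of 72202 bp (chrX:50563120-50635321). It held 2, 1, 13 and 14 peaks in DN 1, DN 2, DP 1 and DP 2, a difference that the rule fixes in large part, since its 9 DP-only regions each need a peak in both DP lists and none in a DN list. A single region of the gene was held by all 4 lists, and 0 were DN-only. Its DP-only peaks were of low to middle rank, with mean percentiles of 16.9 to 73.8. The count was 9 or 10 whichever list was left out, 6 with lists cut to the shortest length and 5 in the top 50% of each list. Next came 3 lncRNA genes with 5 DP-only regions. Gm12216 between Irf1 and Slc22a5 held 0, 0, 6 and 5 peaks, and Gm20139 between Tnfaip3 and Olig3 held 0, 0, 7 and 9. Pvt1, next to Myc, held 1, 0, 7 and 6. Gm20098, which holds the run of 4 beyond Satb1, had 0, 0, 7 and 8 peaks. Morrbid, a lncRNA known to control its neighbour Bcl2l11, a gene of cell death, had 3 DP-only regions and 1, 0, 6 and 6 peaks.

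Other classes of non-coding gene were rarer. Transfer RNA genes were overlapped by 17 DP-only intergenic regions (0.633%), pseudogenes by 39 (1.45%), small nucleolar RNA genes by 6, small nuclear RNA genes by 5 and miRNA genes by 3. The all-list class had a transfer RNA share of 1.61% and all intergenic regions had one of 0.180%. Rnu11, a small nuclear RNA gene of the minor spliceosome, lay under a region with percentiles of 84.7 and 94.4. The region over Mir212 and Mir132 covered 400 bp in DP 1 and 650 bp in DP 2, had percentiles of 46.9 and 74.2, and lay 116900 bp from the nearest DN peak. The other miRNA genes hit were Mir5103 and Mir7671, and 1 more, Mir6349, had a region within 1 kb. Of 32 miRNA genes listed for lymphocytes, 30 were in the gene table, 4 had a DP-only intergenic region within 10 kb and 12 within 100 kb. The share over all miRNA genes was not counted, so these numbers have no background. Neighbouring genes were each counted on the same nearest region, as for Mir181c and Mir181d, Mir15a and Mir16-1, Mir29a and Mir29b-1, and Mir181a-1 and Mir181b-1. The nearest region lay 1390 bp from Mir181c and 1564 bp from Mir181d, at chr8:84180351-84181250, with percentiles of 80.4 and 78.1. For Mir21a the distance was 1767 bp and for Mir142 it was 6964 bp.

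When each region was given to its closest protein-coding gene, up to 100 kb away, the regions fell to 1627 of 21627 genes (7.52%). This number rose to 5523 (25.5%) without DP 1 and to 3410 (15.8%) without DP 2. Of the 1627, 349 had 2 or more, 105 had 3 or more and 30 had 4 or more. Dad1 led with 9, all from the neighbouring alpha chain locus or its flank, and Zfp386, next to Igh, had 6. Then came 13 genes with 5 each. Btg1, an inhibitor of proliferation, had 8, 4, 16 and 17 intergenic peaks, assigned in the same way, in DN 1, DN 2, DP 1 and DP 2. Cebpb, a transcription factor gene best known in myeloid cells, had 1, 0, 8 and 8. Ets2, a transcription factor gene, had 2, 1, 9 and 8, and Max, the partner of Myc, had 1, 0, 7 and 6. At these 4 genes both DP lists stood above both DN lists, which naming genes by their DP-only regions partly fixes. Marcks, a protein kinase C substrate, had 4, 2, 8 and 10, Arl4c, a small GTPase, 2, 1, 9 and 9, and Irf2bp2, a transcriptional corepressor, 9, 1, 16 and 14. Etnk1, an enzyme of lipid synthesis, had 1, 0, 6 and 12. Lbh had 4, 2, 10 and 9 peaks, Mrpl46, a mitochondrial ribosomal protein gene, 3, 2, 10 and 12, and Ahdc1 1, 1, 7 and 6. Cstad had 1, 1, 10 and 10, and Gm52008, at the far end of the gap next to Bcl11b, 3, 0, 14 and 12. Leaving out a list moved several of these counts. Without DP 1 Btg1 had 11, Etnk1 9, Gm52008 9 and Irf2bp2 8, without DP 2 Dad1 had 15, Cstad 10, Gm52008 9, Btg1 8 and Ets2 8, and without DN 1 Irf2bp2 had 9. In the top 50% of each list Etnk1 and Cstad had 1 each, Cebpb, Ahdc1, Lbh, Marcks and Irf2bp2 2 each and Ets2 and Arl4c 3 each. With lists of the shortest length Etnk1 had 1, Ets2 and Lbh 2, and Zfp386, Ahdc1, Cebpb, Cstad and Marcks 3. With all annotated genes in place of protein-coding ones, regions inside or within 1 kb of a non-coding gene dropped out, leaving 1874 regions. The rest went to the nearest gene of any kind. Under this setting 51 of 75 counts for named genes fell, here and below, and 0 rose. Those of Cebpb, Max, Ets2, Etnk1, Ahdc1, Zfp386, Satb1, Sox4, Tgfbr2, Il6st, Eomes and Rasgrp1, among others, were then 0.

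Gene lists of T cell biology had DP-only intergenic regions at more of their genes than the 7.52% of all genes. Of 24 surface proteins of DP thymocytes, 14 (58.3%) had at least 1, with a median of 1 region per gene against 0 over all genes. The numbers were 8 of 18 (44.4%) for cytokine and chemokine receptors, 14 of 32 (43.8%) for transcription factors of T cell development, 9 of 25 (36%) for T cell receptor signalling and 6 of 22 (27.3%) for genes of the CD25-positive DN stage. They were 4 of 16 (25%) for V(D)J recombination and end joining and for survival and apoptosis, and 5 of 21 (23.8%) for nuclear organisation. The median was 0 regions per gene in these lists. The transcription factor list also holds Themis, which encodes no transcription factor, as 1 of its 14 genes with a region. In lists of other cells and of housekeeping genes the numbers were 2 of 12 (16.7%) for NK and innate markers and housekeeping genes. They were 1 of 9 (11.1%) for erythroid markers found in the table, 1 of 12 (8.33%) for myeloid and stromal markers and 0 of 11 for B cell markers. Intergenic regions of all 4 lists, assigned in the same way, were found at 1152 of 21627 genes. They were found at 9 of 32 genes of the transcription factor list, 9 of 25 signalling, 6 of 21 nuclear organisation and 4 of 24 DP surface genes. The DN stage list had 3 such genes, and the receptor, recombination and survival lists 1 each. For signalling and nuclear organisation genes the numbers were as high as for DP-only regions. Genes differ in how much intergenic DNA surrounds them. Among genes with any intergenic region within 100 kb, the share with a DP-only one was 18.9% for all genes. It was 70% for the 20 such genes of the DP surface list, 72.7% for 11 cytokine and chemokine receptors, 51.9% for 27 transcription factors and 66.7% for 6 recombination genes. Lower shares were found for 18 signalling genes (50%), 10 survival genes (40%), 13 nuclear organisation genes (38.5%) and 16 DN stage genes (37.5%). In the lists of other cells the share was 0 for 3 B cell, 16.7% for 6 myeloid and 20% for 5 stromal markers. It was 22.2% for 9 NK and innate markers, but 50% for 2 erythroid markers and 66.7% for 3 housekeeping genes. On this measure the small housekeeping and erythroid lists were thus as high as several T cell lists. The DP surface list had 15 to 17 genes and the transcription factor list 14 to 25 when a list was left out, but the share of all genes moved as well. On leaving out DP 1 the shares with at least 1 region were 70.8% for the DP surface list, 78.1% for the transcription factors, 59.1% for the DN stage, 58.3% for NK and innate markers and 25.5% for all genes. Without DP 2 they were 62.5, 56.2, 50, 41.7 and 15.8%. With all annotated genes the DP surface list had 6 genes (25%) and the transcription factor list 3 (9.38%), against 3.38% of all protein-coding genes.

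**Figure D5:**
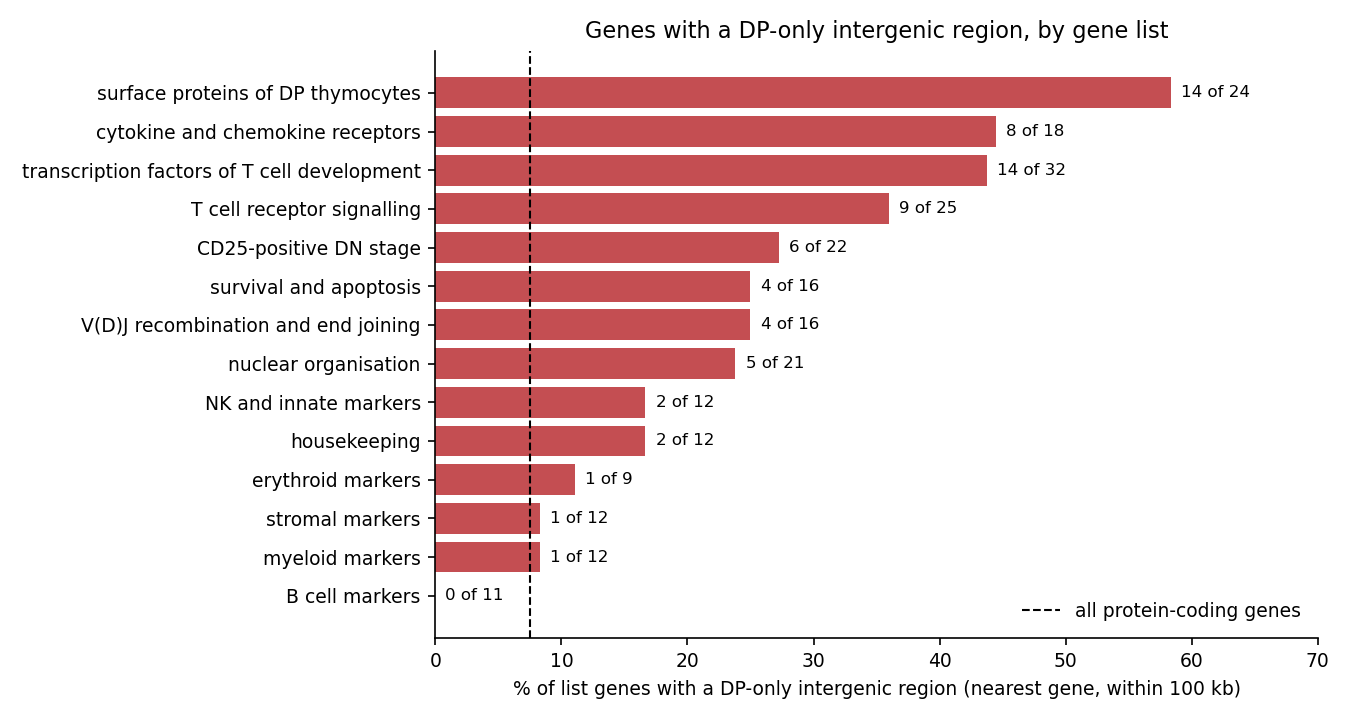
Percentage of genes in each list that had at least 1 DP-only intergenic region (nearest gene, within 100 kb), with the number of genes beside each bar and the share of all protein-coding genes, 7.52%, as a dashed line. The list of DP surface proteins stands at 58.3% and that of B cell markers at 0.

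Among transcription factors, Ets2 had 5 regions and Satb1 had 4, with 1, 0, 11 and 7 intergenic peaks near Satb1 in DN 1, DN 2, DP 1 and DP 2. Runx3, a factor of the CD8 lineage, had 3 regions and 0, 0, 3 and 5 peaks. Sox4 had 3 regions and 3, 2, 9 and 8 peaks, and Id3, an inhibitor of E proteins, had 2 regions and 0, 0, 2 and 6 peaks. For each of these genes both DP lists stood above both DN lists, which naming genes by their DP-only regions partly fixes. The region of Id3 that lay 2509 bp from the gene had percentiles of 74.9 and 93.4, and the other, at 33171 bp, had 87.7 and 94.0. Themis, a gene of thymocyte selection that is in the list but encodes no transcription factor, had 1. Bcl11b, Tcf7, Lef1, Ets1 and Bcl6 also had 1 each. Runx1, Ikzf1 and Gata3 had 0, although intergenic peaks near Gata3 numbered 3, 2, 3 and 5, without a split by group. Without DP 1 the counts were 6 for Satb1 and Sox4, 5 for Id3, 4 for Ets1 and Lef1, 3 for Tcf7 and Runx1, 2 for Bcl11b and 1 for Ikzf1 and Gata3. Without DP 2 they were 10 for Satb1, 8 for Ets2, 5 for Sox4 and Ets1, 4 for Lef1, 2 for Tcf7 and Bcl6 and 1 for Ikzf1. Without DN 1 they were 2 for Tcf7, Lef1 and Ets1 and 1 for Gata3, and without DN 2 Ets1 had 2. In the top 50% of lists Satb1, Runx3 and Sox4 had 1 each, Tcf7 had 2, and Bcl11b, Ets1 and Themis had 0. With lists of the shortest length Satb1 had 2 and Bcl11b 0.

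Among surface proteins, Cd8a had 3 regions and Cd8b1 2. Cd4 had 0, with no intergenic region to which it was the nearest gene. Cd6, a regulator of T cell activation, had 2 regions, at 1813 and 5188 bp, and 0, 0, 2 and 4 peaks. The farther region had percentiles of 83.2 and 97.8. Ccr7, a receptor that guides cells to the thymic medulla, had 2 regions and 0, 0, 2 and 4 peaks. Cd1d1, which presents lipids to NKT cells, had 2 regions and 2, 0, 5 and 4 peaks, and Thy1 had 2 with 0, 0, 6 and 3. At Cd6, Ccr7, Cd1d1 and Thy1 both DP lists again stood above both DN lists, which the choice of regions partly fixes. S1pr1 of the same list had 1 region but went the other way, with 11, 11, 4 and 4 peaks and 3 DN-only regions. Cd69 had 0 regions and 6, 5, 6 and 9 peaks, so the groups overlapped there. Without DP 1 Cd6 and Ccr7 had 4, without DP 2 Thy1 had 5, and without DN 1 Cd1d1 had 4. Cd1d1 and Thy1 had 1 each in the top 50% of lists.

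Of the recombination genes, Rag1 and Rag2 had 0 regions as nearest gene. A region with the smallest p in both DP lists lay in their neighbourhood, at chr2:101552101-101552950, 8253 bp from Iftap, 72186 bp from Rag2 and 85726 bp from Rag1. A DN peak lay 150 bp from it, the shortest distance among the 9 regions with the smallest p in both lists. DNA elements that act on Rag1 and Rag2 from a distance are known, and whether this is one was not examined. Dntt, which adds bases at receptor joints, had 3 regions at 2324, 9949 and 12974 bp, with 3, 1, 6 and 6 intergenic peaks. Hmgb1, a cofactor of the recombinase, had 4 regions and 3, 2, 6 and 7 peaks. Hmgb2 and Lig4, a DNA ligase of end joining, had 1 each. Leaving out any list kept Hmgb1 at 4, Dntt at 3 or 4 and Lig4 and Hmgb2 at 1, while Rag1 had 1 without DP 1. Hmgb1 had 1 and Hmgb2 0 in the top 50% of lists, and 2 and 0 with lists of the shortest length.

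Of the signalling genes, Nfatc2, a calcium-regulated transcription factor, had 3 regions and 0, 0, 3 and 3 peaks. Dusp5 and Dusp6, phosphatases that limit ERK signalling, had 2 each, with 2, 1, 4 and 5 and with 1, 2, 7 and 8 peaks. Ptprc, which encodes CD45, had 2 with 1, 2, 4 and 4 peaks, and Rasgrp1, a Ras activator needed for selection, had 2 with 8, 4, 10 and 15. The receptor gene Tgfbr2 had 4 regions between 13763 and 43688 bp from the gene, with 0, 0, 4 and 8 peaks. Ifngr1 had 4 regions with 3, 0, 8 and 11 peaks, Il6st 3 with 5, 3, 8 and 8, and Tgfbr1 2 with 1, 0, 3 and 4. For each of these genes the DP lists stood above the DN lists, which naming genes by their DP-only regions partly fixes. At Nfatc2 all 3 intergenic regions were DP-only, so the rule alone sets the direction of its counts. Without DP 1 the counts were 8 for Tgfbr2, 7 for Rasgrp1 and 4 for Dusp6, without DP 2 they were 7 for Ifngr1 and 4 for Dusp6, and without DN 1 they were 5 for Il6st and 4 for Rasgrp1. Rasgrp1 had 0 when peaks within 250 bp were merged, and its regions lay 300 and 350 bp from a DN peak. In the top 50% of lists Nfatc2, Ifngr1, Dusp5, Ptprc and Tgfbr1 had 1 each and Dusp6 had 0.

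The remaining lists had few regions per gene. Fas, a death receptor gene, had 1 region, 3046 bp away, with percentiles of 87.7 and 88.8, and Cflar, Bbc3 and Tnfaip3 had 1 each. Of the DN stage genes, Notch3 and Kit had 2, and Il2ra, Notch1, Hes1 and Cd44 had 1. Il2ra encodes the CD25 by which the DN cells were sorted, and its intergenic peaks numbered 3, 2, 3 and 3, so the groups overlapped. Its region touched the end of a DN peak without sharing a base, and it was no longer DP-only when peaks within 250 bp were merged or when 50% of the shorter peak had to be shared. Lbr, a lamin B receptor gene, and Yy1, a factor in chromatin looping, had 2 each, with 3, 1, 6 and 7 and with 2, 1, 4 and 4 peaks. Among lists of other cells, Eomes, a transcription factor gene of NK and memory T cells, had 3 regions 77360 to 90410 bp away, with 1, 0, 6 and 9 peaks, and Epcam, with 0 peaks within 10 kb, had 2 farther out, with 2, 1, 4 and 4. Actb and Ywhaz, housekeeping genes, had 2 each. Without DP 1 Eomes had 7, Kit 6, Ywhaz 5 and Hes1 4, and without DN 1 Tnfaip3 and Lbr had 4 and Il2ra, Notch1 and Hes1 2. Without DP 2 Cd44, Tnfaip3 and Hes1 had 2. Notch3, Yy1, Il2ra, Notch1, Hes1, Cflar and Bbc3 had 0 in the upper 50% of the lists.

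Only 9 DP-only intergenic regions had the smallest p in both DP lists. Besides those near Cd8a and Iftap, the region at chr10:96690601-96691450 lay 68213 bp from Btg1 and 2200 bp from a DN peak. The region at chr6:127330051-127330950 lay between Ccnd2, a cyclin of cell cycle entry, and Parp11, 116329 bp from Parp11. The region at chr14:105532151-105532850 lay 223203 bp from Ndfip2, an adaptor of ubiquitin ligases, and was the farthest of the 9 from a gene. The others lay near Pdcl3, A530016L24Rik, Sqor and Iyd, and the last of these, at chr10:3516201-3517150, was 182950 bp from the nearest DN peak. The widest DP-only intergenic region covered 1400 bp, at chr14:73118501-73119900, 19544 bp from Rcbtb2. The farthest from a gene lay 1322761 bp from Ncam2, at chr16:82946851-82947250, with a mean percentile of 30.8.

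Genes next to DP-only intergenic regions were also set against other genes by the regions at their ends, which the rule did not use. Of the 1627 genes with at least 1, 259 (15.9%) had a DP-only region within 1 kb of an end, against 430 of 6983 genes (6.16%) with intergenic regions but no DP-only one. The share was 18.1% for the 105 genes with 3 or more. DN-only regions at an end went the other way, with 0.738% and 1.78%. A gene-end region of any kind was found for 70.1% and 51.1%, and one of all 4 lists for 25.3% and 21.3%, so the genes also differed in how often any peak was listed at their ends. Both kinds of region come from the same 4 lists, so these shares are descriptions without a test.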

How the data were processed

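Each of the 4 ATAC-seq samples has its own deposited peak list. The lists give positions and, for every peak, a p-value deposited by the authors, from which peaks were ranked within their list. The submitters' processing notes name mm10, Bowtie2 and Picard, without roles. Read filters, the shift of insertion sites and the peak caller's settings are not given in the sources. Peaks start on a grid of 50 bp. No pair of lists was a copy (1.32 to 6.25% identical peaks). Genes came from RefSeq on GRCm38.p6, the same build as mm10, and coordinates count from 1.

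The members, gene lists and rules for named genes were chosen with earlier results of these data known. Named are the 15 genes with the most regions, up to 6 genes of each list with the most, fixed stage genes, the best ranked, widest, farthest and limit regions, the longest runs and regions at miRNA genes. One gene of this rule is not reported here. The gaps, lncRNA genes and start windows named were chosen after their values were seen. Exact permutation tests over the 4 lists, two-sided, with Benjamini-Hochberg adjustment were the only tests. The planned motif scan of the regions themselves was not run, since no genome was used here, and motifs were counted in start windows in its place. Alternatives were the top 50% of each list, lists of the shortest length, a 50% overlap, merging within 250 bp, limits of 500 bp, 2500 bp and 10 kb, all annotated genes, each list left out and the replicate block. Each was applied to the members; counts for named genes, gene lists, other classes, gaps, runs and loci were added after the data were seen. The steps were tested on simulated lists. Software was Python 3.11.15 with pandas 2.3.3, numpy 2.4.6, matplotlib 3.10.9 for figures and scipy 1.17.1.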

Additional observations from a re-analysis of the deposited data

How the results depend on the processing

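Depth is unknown, the lists differ in length, and leaving out a list relaxes the rule, so counts then mostly rise. With a list left out, the number of DP-only intergenic regions ran from 3043 to 23804, their share of DP-only regions from 30.4 to 53.6%, the median distance to a gene end from 20695 to 113312 bp, the share with another within 10 kb from 22.0 to 36.3%, the share beyond 100 kb from 18.0 to 52.8% and the genes with a region from 1803 to 5523. The differences between DP and DN lists in the share, width and distance of intergenic peaks kept their direction or became 0.

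In the top 50% of each list there were 1659 regions, 28.3% of DP-only regions, at a median of 20697 bp, with 18.0% within 10 kb of another and 18.0% beyond 100 kb. With lists of the shortest length the share was 31.0%, the distance 21191 bp, and the other shares 17.9 and 18.5%. A 50% overlap gave a share of 32.8% and 23.5% within 10 kb. Merging within 250 bp gave 34.7, 19.3 and 22.9%. A limit of 500 bp gave 34.7%. A limit of 2500 bp gave 31.0%, 26432.5 bp and 22.3% beyond 100 kb. A limit of 10 kb gave 23.7%, 44671.5 bp, 29.3% and 1014 genes. With the rule applied to all annotated genes in place of protein-coding ones, the share was 23.4%, the distance 9540 bp, and the other shares 16.1 and 3.26%. A stricter limit leaves only farther regions by construction, and for the other settings the cause was not tested.

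With the replicate number as a block, the 3 differences between lists were the same, -6.60 percentage points, 25 bp and -61799 bp, with exact permutation p-values of 0.5, 1 and 0.5. The labels give the numbers only as names, so they do not pair the samples.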
